A study of Homo sapiens with 21 samples.

Results

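The trametinib response of YAPKO1, a YAP1 knockout line made from the human neuroblastoma line NLF, was read from 6 RNA sequencing libraries of the 21 in the series. The members are the 3 libraries of YAPKO1 cells grown with trametinib and the 3 of YAPKO1 cells grown with its solvent DMSO, taken by their labels. Trametinib, an inhibitor of the kinases MEK1 and MEK2, was given at 20 nM for 72 h, starting 24 h after plating. For DMSO the labels of the samples state 0.01% and the text of the series states 0.1%. YAPKO1 carries Cas9 and 1 guide against YAP1, introduced by lentivirus. The lines it is set against are sgCON, which carries Cas9 and a scrambled guide, and YAPKO2, which carries a second YAP1 guide, each grown with the same agents in 3 and 3 libraries. The parental NLF line, grown with DMSO for the same time in 3 libraries, enters the filter, the scaling and the estimate of the spread. It is compared here only for the level of YAP1. The labels do not say whether YAPKO1 is 1 clone or a pool, nor whether replicates are separate cultures, so p-values measure the spread between these libraries, which may be technical.

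In the MAP kinase cascade RAS activates RAF, RAF activates MEK, and MEK activates ERK, which phosphorylates transcription factors and drives genes of growth. ERK also induces its own inhibitors, the dual specificity phosphatases (DUSP) and the Sprouty (SPRY) proteins, so their RNA serves as a readout of ERK activity. Neuroblastoma arises from sympathetic nerve precursors, and its adrenergic state is held by transcription factors such as HAND1, GATA2 and GATA3, while MYCN is its best known oncogene. YAP1 is a coactivator of TEAD transcription factors that the Hippo kinases restrain.

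The guide of YAPKO1 is shown because it defines the line, with the base triplet that Cas9 needs beside it (the PAM) in capitals.
YAPKO1 guide and PAM: cgccgtcatgaaccccaagaCGG
It matched chr11:102111058-102111077 of GRCh38 on the plus strand, in exon 1 of 7 of the 11 YAP1 transcripts of GENCODE release 29. In these transcripts its 20 bases begin at base 210 of the coding sequence, and the cut that Cas9 makes would follow coding base 226. No transcript of another gene held an exact match of the guide with its PAM on the sense strand. The opposite strand and inexact matches were not searched.

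Values below are FPKM (fragments per kilobase of transcript, relative to the fragments of the library) scaled between libraries, and each list of 3 values runs over replicates 1 to 3. YAP1 (ENSG00000137693.9) stood at 13.4, 13.03 and 9.19 in DMSO and 12.7, 12.1 and 10.3 with trametinib in YAPKO1. The values overlapped, and the log2 change with trametinib was -0.01 ± 0.23 (limma, adjusted p = 0.993). For comparison the mean was 25.9 ± 1.904 in sgCON with DMSO and 32.3 ± 2.201 in parental cells with DMSO (SD, n = 3). In DMSO YAPKO1 stood -1.11 ± 0.23 (log2) from sgCON (adjusted p = 0.00391), and YAPKO2 had a mean of 2.93 ± 0.2598. YAP1 RNA was still detected in YAPKO1, and RNA does not tell what protein an edited gene makes.

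Most markers of the labelled cell type were present. Of 17 neuroblastoma markers, 16 passed the filter of 1 FPKM in at least 3 of the 21 libraries, and these summed to 703 to 925 in DMSO and 848 to 947 with trametinib. TH, the enzyme that starts catecholamine synthesis, was the member under the filter, at up to 0.54 FPKM in YAPKO1. Markers of other cells were mostly low. Of 12 epithelial markers 5 passed, with sums of 3.08 to 5.04, and CDH1, KRT5, KRT14 and ESRP1 were listed at 0 in all 6 libraries. Of 12 blood and endothelial markers 1 passed, at 0.224 to 1.13, and CD3E, HBB and HBA1 were listed at 0. Of 12 Schwann cell markers 4 passed, with sums of 9.03 to 12.1, and SOX10 reached 0.33 FPKM. Fibroblast markers were higher. The 10 of 12 that passed summed to 618, 564 and 375 in DMSO and 294, 367 and 300.01 with trametinib. Of these 10, 0 rose and 2 fell (20% called, against 7.87% of all genes). TCF21 was listed at 0. The largest part was LUM, a matrix proteoglycan chosen after its values were seen, at 369.6, 313 and 81.8 in DMSO and 55.98, 147 and 71.5 with trametinib.

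GC-rich genes weighed more in some libraries than in others, and DMSO replicate 3 stood apart. For each library, a GC trend was taken as the median log2 deviation of protein-coding genes above 56.6% transcript GC minus that of those below 41.7%. It was -0.40, -0.22 and 0.68 in DMSO and 0.38, -0.075 and 0.52 with trametinib. The groups overlapped, and the difference of 0.26 gave p = 0.6 in an exact two-sided permutation test, which cannot go below 0.1 with 3 against 3. Over 15615 genes (not independent of each other), GC content and the YAPKO1 log2 change had a Spearman rho of 0.259, and at 0.459 without DMSO replicate 3. Genes at 1 FPKM or more numbered 13937 to 14405 per library. FPKM carry no counts, so the depth is unknown.

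**Figure D1:**
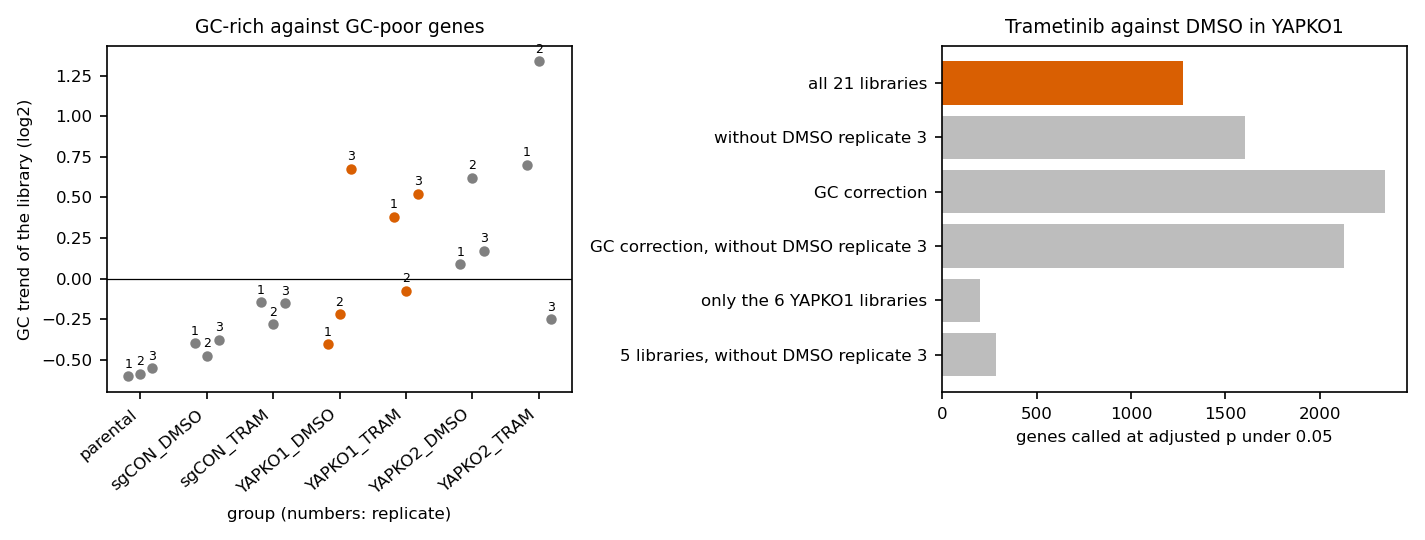
Left, GC trend (log2) of each of the 21 libraries by group, with YAPKO1 in orange and replicate numbers above the points; YAPKO1 DMSO replicate 3 lies at 0.68, above -0.40 and -0.22 of the other DMSO libraries. Right, number of genes called for trametinib against DMSO in YAPKO1 under 6 settings, from 198 with only the 6 YAPKO1 libraries to 2346 with the GC correction.

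Of 16194 genes tested, 661 rose and 614 fell with trametinib in YAPKO1 at an adjusted p under 0.05, which is 7.87% of genes (4.08% up and 3.79% down). More than 2-fold changes were found for 171 of the genes that rose and 155 of those that fell. The 3 and 3 values did not overlap for 21.3% of all genes and for 1258 of the 1275 called. The number of calls changed with the libraries in the fit. It was 198 with only the 6 YAPKO1 libraries, 2346 after a correction for GC content and 1607 without DMSO replicate 3, with 188, 1149 and 1037 genes shared with the 1275. List counts given below for these fits stand beside these totals, not beside 7.87%. Without scaling between libraries the share of called genes that rose was 62.3%, against 51.8%, and with the GC correction it was 45.4%. Of the 661 genes that rose, 198 also rose in sgCON and 463 in YAPKO2, where 5.17% and 20.0% of genes were called in either direction. Of the 614 that fell, 229 fell in sgCON and 455 in YAPKO2.

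Of 16 tested ERK feedback inhibitors, 7 fell and 1 rose (50% called, against 7.87% of all genes). DUSP6, the phosphatase that removes the activating phosphates of ERK, read 9.59, 8.77 and 8.21 in DMSO and 0.469, 0.166 and 0.665 with trametinib. Every trametinib value lay under 1 and every DMSO value above 8, and the log2 change was -3.36 ± 0.19 (adjusted p = 1.15e-08). The Sprouty genes, inhibitors of signalling from receptor tyrosine kinases to RAS, changed alike. SPRY4 read 1.79, 2.83 and 3.62 in DMSO and 0.379, 0.263 and 0.328 with trametinib, a fall of 8.49-fold, and SPRY2 read 24.7, 27.1 and 33.6 in DMSO and 8.48, 6.99 and 7.13 with trametinib, a fall of 3.78-fold. SPRY1 fell less, from 5.33, 4.99 and 5.69 to 3.01, 2.45 and 3.13. None of the 3 pairs of groups overlapped.

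DUSP4, a nuclear phosphatase of the same family, went from 10.8, 12.7 and 14.8 to 5.78, 4.27 and 4.94 (-1.27 ± 0.12). SPRED2, which blocks RAF activation, went from 12.7, 11.8 and 11.5 to 7.29, 7.41 and 4.801 (-0.86 ± 0.13). DUSP5 fell by the smallest margin of the called members (-0.69 ± 0.21, adjusted p = 0.0497), and this call was lost without DMSO replicate 3 (adjusted p = 0.141). DUSP2, another phosphatase of the family, rose from 1.35, 1.82 and 1.29 to 4.22, 3.47 and 3.45 (1.09 ± 0.19). The median log2 change of the 16 was -0.70, against -0.0070 over all genes. SPRED1 (-0.76 ± 0.26, adjusted p = 0.0887) and SPRED3 (-0.71 ± 0.39) were lower without passing the test. With only the 6 YAPKO1 libraries 4 of the falls passed.

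Of 28 tested transcription factors and output genes that ERK drives, 11 fell and 1 rose (42.9% called, against 7.87% of all genes). ETV4, an ETS factor of the PEA3 group, had the largest change among protein-coding genes that were called with no overlap. It read 38.5, 36.9 and 56.2 in DMSO and 2.703, 1.93 and 1.65 with trametinib, a 20.9-fold fall (log2 -4.09 ± 0.19, adjusted p = 5.33e-10). ETV5, of the same group, read 19.1, 24.01 and 24.04 in DMSO and 2.35, 1.39 and 1.05 with trametinib (-3.49 ± 0.24). In neither gene did the groups overlap, and the lowest DMSO value of ETV4 was more than 10 times its highest trametinib value.

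EPHA2, an ephrin receptor, read 8.98, 9.496 and 14.5 in DMSO and 3.06, 1.82 and 3.66 with trametinib (-1.79 ± 0.20). MAFF, a small MAF factor, read 4.83, 6.53 and 8.19 in DMSO and 1.77, 1.26 and 1.69 with trametinib (-1.74 ± 0.20). FOSL1, a FOS family subunit of AP-1, read 5.098, 5.81 and 7.85 in DMSO and 1.95, 1.32 and 1.803 with trametinib (-1.62 ± 0.17). With trametinib these 3 genes stood at 0.259, 0.241 and 0.270 times their DMSO means. IER3, an immediate early gene, read 1.79, 1.64 and 1.56 in DMSO and 0.379, 0.205 and 0.2796 with trametinib, and VGF, a neuronal peptide precursor that growth factors induce, read 1.197, 1.27 and 1.95 in DMSO and 0.339, 0.4196 and 0.174 with trametinib. ATF3, a stress-induced factor, fell by 2.12-fold, and IER5, HMGA2 and PLAUR fell, with log2 changes of -0.63 ± 0.13, -0.54 ± 0.13 and -0.53 ± 0.12. The calls of ATF3 and HMGA2 were lost in some fits that left out 1 library (highest adjusted p = 0.0544 and 0.0803).

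JUN, the AP-1 partner of FOS proteins, rose from 1.56, 1.36 and 2.07 to 3.80, 3.81 and 3.98 (1.03 ± 0.15), with no overlap. CCND1, cyclin D1, did not pass (0.27 ± 0.10, adjusted p = 0.105), and its trametinib values of 114, 116 and 96.2 overlapped the DMSO values of 85.96, 85.6 and 98.5. The median log2 change of the 28 was -0.39 in YAPKO1, -0.059 in sgCON and -0.31 in YAPKO2. EGR1 and ETV1 stayed under the filter, at up to 0.89 and 0.26 FPKM in YAPKO1. Of the cascade's own components, 0 of 26 rose and 3 fell (11.5% called, against 7.87% of all genes). The falls were RPS6KA3, the ERK-activated kinase RSK2 (-1.11 ± 0.31), MKNK1, an ERK-activated kinase of translation (-0.57 ± 0.16), and MAP2K1, which encodes MEK1 (-0.43 ± 0.10). The calls of RPS6KA3 and MKNK1 were lost in some fits that left out 1 library (highest adjusted p = 0.155 and 0.149).

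**Figure D2:**
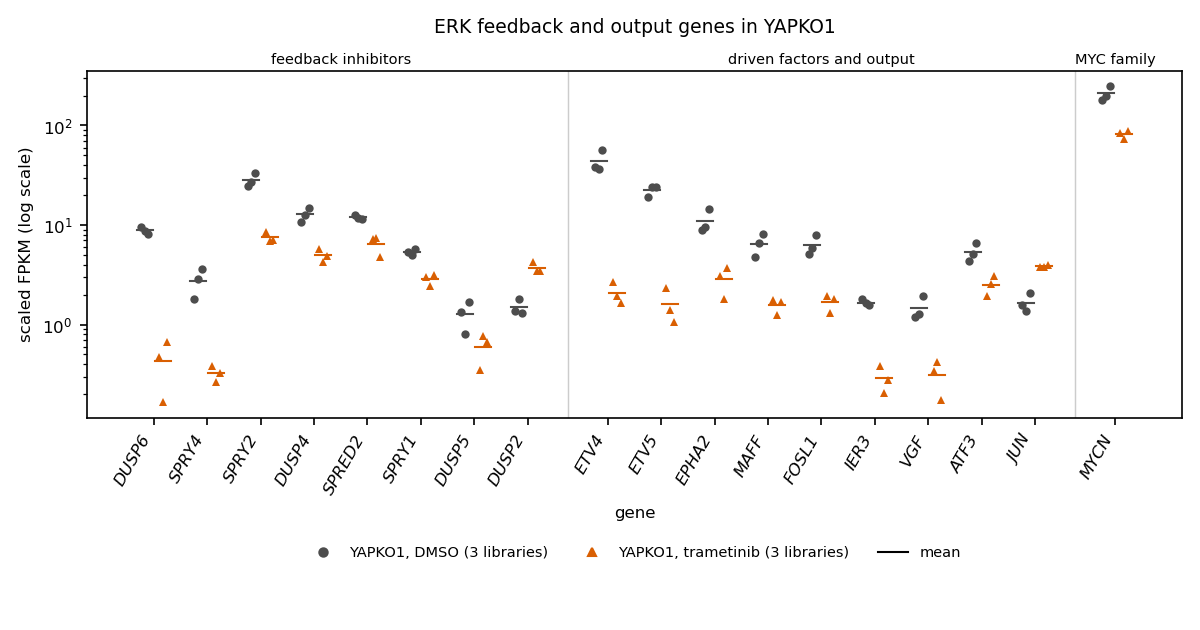
Scaled FPKM (log axis) of ERK feedback inhibitors, ERK-driven genes and MYCN in the 3 DMSO (grey circles) and 3 trametinib (orange triangles) libraries of YAPKO1, with bars at the group means. DUSP2 and JUN lie higher with trametinib and the other genes lower; DUSP5 is the gene whose groups come closest (lowest DMSO value 0.798, highest trametinib value 0.761).

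Promoters were searched because these genes fell together. RefSeq tables of GRCh38.p14 held a promoter for 11 of the 18 ERK feedback and output genes that fell, ETV4 and ETV5 not among them. The 250 bases before each start were read for an ETS motif (CCGGAA), an AP-1 motif (TGANTCA) and a cAMP response motif (TGACGTCA), on both strands. The ETS motif stood in 2 of the 11 (SPRY2 and IER5), against 25.4% of the promoters of tested genes, and the AP-1 motif in 1 (PLAUR), against 3.65%. The cAMP response motif stood in 3 of 11, those of EPHA2, MAFF and VGF, against 3.00% of promoters of tested genes and 1.77% of all 27305 promoters. These 3 are shown with the motif in capitals, and a match is a description of the letters, not of a bound site.
EPHA2 promoter (chr1:16156070-16156319, minus strand): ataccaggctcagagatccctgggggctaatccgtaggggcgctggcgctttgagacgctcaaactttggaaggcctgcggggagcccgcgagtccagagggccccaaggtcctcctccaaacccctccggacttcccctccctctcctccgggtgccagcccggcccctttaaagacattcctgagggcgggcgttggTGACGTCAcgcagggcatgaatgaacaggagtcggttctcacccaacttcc
MAFF promoter (chr22:38201744-38201993, plus strand): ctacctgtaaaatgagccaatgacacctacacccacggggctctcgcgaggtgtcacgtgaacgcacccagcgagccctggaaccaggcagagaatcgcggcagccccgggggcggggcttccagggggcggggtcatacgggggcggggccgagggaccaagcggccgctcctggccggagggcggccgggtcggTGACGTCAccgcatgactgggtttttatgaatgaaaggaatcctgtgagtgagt
VGF promoter (chr7:101165570-101165819, minus strand): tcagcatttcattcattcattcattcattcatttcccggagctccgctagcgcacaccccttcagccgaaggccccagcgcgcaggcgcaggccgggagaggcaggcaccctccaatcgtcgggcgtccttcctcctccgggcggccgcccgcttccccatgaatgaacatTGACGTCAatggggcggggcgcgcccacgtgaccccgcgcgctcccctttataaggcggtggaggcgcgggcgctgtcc

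MYCN RNA was lowered by more than 2-fold. It read 182, 199 and 248 in DMSO and 83.3, 73.2 and 88.9 with trametinib, a 2.56-fold fall (log2 -1.34 ± 0.12, adjusted p = 1.83e-06), with no overlap. In DMSO MYCN stood 1.09 ± 0.12 (log2) above sgCON (adjusted p = 9.68e-06), and the fall in YAPKO1 did not differ from that in sgCON by the test of the difference (-0.47 ± 0.17, adjusted p = 0.444). Of the 11 tested members of the MYC network, MXI1, a MAX partner that opposes MYC, was the other gene that fell (-0.62 ± 0.12). This list had 18.2% called. Of 44 tested ribosome biogenesis and MYC target genes, 0 rose and 3 fell (6.82% called, against 7.87% of all genes), with a median of -0.18. They were LDHA, which makes lactate, NOP16 and NOLC1, nucleolar proteins. The NOLC1 call was lost in some fits that left out 1 library (highest adjusted p = 0.0776), and 1 of the 3 passed with only the 6 YAPKO1 libraries. LDHA read 585, 645 and 636 in DMSO and 369, 323 and 301 with trametinib (-0.91 ± 0.10). All 76 cytosolic ribosomal protein genes were higher and 10 rose (13.2% called), with a median of 0.27, against 0.13 in sgCON (0 rose) and 0.28 in YAPKO2 (18 rose). RPS27 had the largest rise among those called, from 5147, 5644 and 5334 to 8410.4, 8086 and 8185. With only the 6 YAPKO1 libraries 0 of these 10 passed.

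Of 18 tested transcription factors of the adrenergic state, 10 rose, 1 fell and 7 were not called (61.1% called, against 7.87% of all genes). GATA2 read 6.05, 7.45 and 9.07 in DMSO and 25.6, 21.3 and 24.2 with trametinib, a 3.15-fold rise (log2 1.61 ± 0.14, adjusted p = 1.48e-06). HAND1 read 10.5, 14.8 and 14.4 in DMSO and 38.2, 36.9 and 40.9 with trametinib, a 2.93-fold rise. In both genes the lowest trametinib value lay above the highest DMSO value.

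GATA3 read 11.2, 13.4 and 12.1 in DMSO and 17.9, 20.4 and 19.01 with trametinib (0.63 ± 0.10). SOX4, a neural progenitor factor, read 23.8, 24.01 and 24.6 in DMSO and 42.9, 42.9 and 44.01 with trametinib (0.83 ± 0.072). SATB1 (0.90 ± 0.14), INSM2 (0.89 ± 0.11), EYA1 (0.72 ± 0.08) and KLF7 (0.43 ± 0.12) also rose. The KLF7 call was lost without DMSO replicate 3 (adjusted p = 0.0931). HEY1, a target of Notch signalling, was the member that fell, from 14.4, 15.9 and 18.8 to 5.296, 4.31 and 5.76 (-1.59 ± 0.13). The median over the 18 was 0.53, against 0.28 in sgCON and 0.53 in YAPKO2. With only the 6 YAPKO1 libraries 7 rises and the fall passed. SOX4 rose more than in sgCON by the test of the difference (0.61 ± 0.10, adjusted p = 0.0192), and its change was 1.15 ± 0.072 in YAPKO2.

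Genes of catecholamine handling split in 2 directions. DBH, which turns dopamine into noradrenaline, read 0.944, 1.03 and 1.12 in DMSO and 5.75, 5.53 and 7.32 with trametinib, a 6.003-fold rise (log2 2.12 ± 0.23, adjusted p = 1.41e-05). SLC6A2, the noradrenaline transporter, read 12.4, 15.3 and 13.3 in DMSO and 26.7, 35.4 and 31.6 with trametinib (1.16 ± 0.16). DDC, which makes dopamine, read 11.4, 14.1 and 14.9 in DMSO and 25.1, 19.8 and 26.7 with trametinib (0.80 ± 0.17), and MAOA, which breaks down noradrenaline, read 60.3, 63.4 and 62.4 in DMSO and 114, 107 and 96.5 with trametinib (0.76 ± 0.091). The groups of none of these 4 overlapped.

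The falls were in MAOB, GCH1 and MOXD1. MAOB, the related oxidase, read 3.32, 2.66 and 5.96 in DMSO and 0.798, 0.693 and 0.598 with trametinib (-1.84 ± 0.22). GCH1, which makes the cofactor of tyrosine hydroxylase, read 6.22, 6.22 and 4.04 in DMSO and 1.79, 2.01 and 1.697 with trametinib (-1.34 ± 0.19), and MOXD1, a relative of DBH, read 8.54, 5.13 and 5.92 in DMSO and 1.75, 1.79 and 1.71 with trametinib (-1.62 ± 0.14). In this list, of 12 tested members, 4 rose and 3 fell (58.3% called, against 7.87% of all genes). TH was under the filter. MAOA rose more than in sgCON (0.81 ± 0.13, adjusted p = 0.0105), where it changed by -0.051 ± 0.091. The difference for DBH did not pass (1.42 ± 0.33, adjusted p = 0.099), and the sgCON means were 0.0268 ± 0.0254 and 0.373 ± 0.217 (SD, n = 3).

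**Figure D3:**
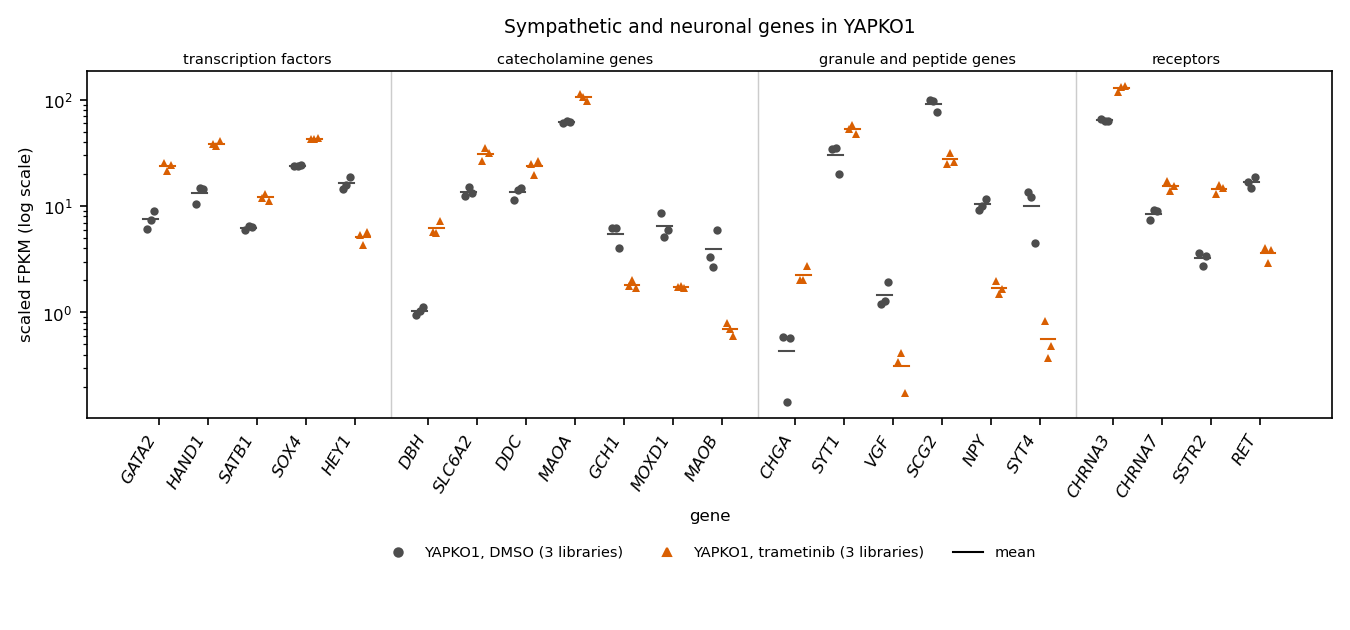
Scaled FPKM (log axis) of transcription factors, catecholamine genes, granule and peptide genes and receptors in the 3 DMSO (grey circles) and 3 trametinib (orange triangles) libraries of YAPKO1, with bars at the group means. GATA2, HAND1 and DBH lie higher with trametinib (DBH near 1 against 5.53 to 7.32), while MAOB, NPY and SYT4 lie lower.

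Of 12 tested genes of granins and neuropeptides, 5 fell and 2 rose (58.3% called, against 7.87% of all genes). NPY, neuropeptide Y of sympathetic neurons, read 9.28, 10.1 and 11.8 in DMSO and 1.99, 1.48 and 1.67 with trametinib (-2.30 ± 0.20). SCG2, the granule protein secretogranin, read 99.8, 96.9 and 77.5 in DMSO and 25.2, 31.5 and 25.9 with trametinib (-1.71 ± 0.17). SYT4, a synaptotagmin of dense core vesicles, read 13.6, 12.1 and 4.49 in DMSO and 0.838, 0.371 and 0.482 with trametinib (-3.20 ± 0.28), with DMSO replicate 3 low among the DMSO libraries but above every trametinib value. CHGA, chromogranin A, rose from a low level, at 0.584, 0.143 and 0.576 in DMSO and 2.03, 2.03 and 2.72 with trametinib (1.59 ± 0.25). Of synaptic vesicle genes, 6 of 23 rose and 1 fell (30.4% called), with a median of 0.27. With only the 6 YAPKO1 libraries these counts were 1 and 1. SYP, synaptophysin, read 0.788, 1.24 and 2.05 in DMSO and 3.79, 2.93 and 4.68 with trametinib (1.25 ± 0.24), and RIMS3, of the active zone, read 16.1, 14.7 and 18.4 in DMSO and 32.02, 31.5 and 38.5 with trametinib (1.03 ± 0.17).

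Nicotinic receptor subunits, the receivers of the preganglionic signal, rose in 4 of 6 and fell in 1 (83.3% called, against 7.87% of all genes). With only the 6 YAPKO1 libraries 1 rose and 0 fell. CHRNA3, the ganglionic subunit, read 65.6, 63.7 and 63.5 in DMSO and 118, 131 and 134 with trametinib, a 1.99-fold rise (0.99 ± 0.13). CHRNA7 read 7.35, 9.19 and 8.91 in DMSO and 17.4, 13.8 and 15.6 with trametinib (0.84 ± 0.13), and CHRNA5 fell from 41.99, 37.2 and 36.1 to 27.8, 27.4 and 25.1. CHRNA3 had also risen in sgCON (1.73 ± 0.13) and CHRNA7 had not passed there (0.04 ± 0.13), but neither difference between the lines passed (adjusted p = 0.152 and 0.0902).

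Of 35 tested neurite, microtubule and growth cone genes, 8 rose and 1 fell (25.7% called, against 7.87% of all genes). With only the 6 YAPKO1 libraries 2 rose and 0 fell. GAP43, the growth cone protein, read 40.9, 41.8 and 48.6 in DMSO and 107, 98.7 and 83.7 with trametinib (1.13 ± 0.12). PRPH, peripherin of peripheral neurons, read 49.2, 48.7 and 71.1 in DMSO and 128, 96.8 and 127 with trametinib (1.06 ± 0.17). NCAM1, a neural adhesion molecule, read 12.3, 11.7 and 10.6 in DMSO and 20.7, 20.7 and 18.8 with trametinib (0.77 ± 0.10), with no overlap in any of the 3 genes. ELAVL4 and L1CAM rose with wider errors (0.96 ± 0.26 and 0.74 ± 0.20), and both calls were lost in some fits that left out 1 library (highest adjusted p = 0.121 and 0.138), for ELAVL4 also without DMSO replicate 3 (0.0947). NCAM1 rose more than in sgCON (0.75 ± 0.14, adjusted p = 0.0306), where its change was 0.02 ± 0.10.

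Among axon guidance genes 5 of 35 rose and 2 fell (20% called, against 7.87% of all genes). NRP1, a semaphorin and VEGF coreceptor, read 8.15, 6.89 and 7.75 in DMSO and 18.1, 16.5 and 17.7 with trametinib (1.15 ± 0.13). This rise was larger than in sgCON (1.05 ± 0.18, adjusted p = 0.0202) and in YAPKO2 (0.86 ± 0.18, adjusted p = 0.0315). NRP2, its relative, read 8.698, 7.65 and 7.57 in DMSO and 13.7, 16.1 and 16.3 with trametinib (0.90 ± 0.13), against 0.0018 ± 0.13 in sgCON (adjusted p of the difference = 0.0479). SLIT3, a secreted guidance cue, read 31.8, 33.3 and 39.6 in DMSO and 62.4, 61.01 and 68.7 with trametinib, and EFNB2, an ephrin, fell from 1.099, 0.8902 and 1.08 to 0.299, 0.273 and 0.434. Of Notch and bHLH genes 7 of 25 rose and 3 fell (40% called). The Notch ligand DLL1 (1.15 ± 0.18) and the factors NEUROD1 (0.99 ± 0.25), ATOH8 (0.94 ± 0.18) and ID2 (0.74 ± 0.11) rose. NEUROD1 did not pass without DMSO replicate 3 (adjusted p = 0.0763). Of channel genes 3 rose and 3 fell among 29 (20.7% called). They ran from KCNK1, a leak potassium channel (-1.29 ± 0.13), to SCN3B, a sodium channel subunit (1.47 ± 0.17).

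Of 34 tested receptor tyrosine kinases and ligands, 6 rose and 2 fell (23.5% called, against 7.87% of all genes). With only the 6 YAPKO1 libraries 1 rose and 1 fell. RET, the receptor of GDNF family ligands, read 17.01, 14.9 and 18.7 in DMSO and 4.08, 2.94 and 3.85 with trametinib, a 4.66-fold fall (log2 -2.08 ± 0.15, adjusted p = 1.6e-07). ALK, the kinase mutated in familial neuroblastoma, rose from 0.516, 0.471 and 0.452 to 1.65, 1.95 and 2.45 (1.35 ± 0.16). NGFR, the low affinity neurotrophin receptor, rose from 0.136, 0.348 and 0.514 to 1.87, 1.503 and 1.49 (1.37 ± 0.21). The ephrin receptor EPHA5 rose by 1.02 ± 0.24, a call lost in some fits without 1 library (highest adjusted p = 0.0716). ALK rose more than in sgCON (1.18 ± 0.23, adjusted p = 0.0372) and less than in YAPKO2 (-1.34 ± 0.23, adjusted p = 0.00943), and the sgCON means were 0.0402 ± 0.0171 and 0.108 ± 0.0261.

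Of 31 tested p53 target genes, 7 fell and 0 rose (22.6% called, against 7.87% of all genes). CDKN1A, the cell cycle inhibitor p21 that p53 induces, read 146, 149.5 and 204 in DMSO and 83.5, 72.7 and 80.3 with trametinib, a 2.12-fold fall (log2 -1.06 ± 0.15, adjusted p = 0.000167). GDF15, a secreted stress factor, read 31.1, 34.1 and 43.8 in DMSO and 13.6, 11.9 and 15.4 with trametinib (-1.37 ± 0.22). PLK2 read 51.3, 56.2 and 44.4 in DMSO and 23.7, 25.8 and 25.4 with trametinib, a 2.03-fold fall, and GADD45A, a growth arrest protein, read 58.6, 55.9 and 51.97 in DMSO and 30.2, 32.8 and 32.4 with trametinib (-0.79 ± 0.11). The median over the 31 was -0.44, against 0.06 in sgCON and -0.18 in YAPKO2. With only the 6 YAPKO1 libraries 4 of the 31 fell, and 18 with the GC correction. Those fits called 198 and 2346 of all 16194 genes. The difference from sgCON passed for 0 of the 31.

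AURKA, a mitotic kinase, read 51.0, 48.99 and 51.9 in DMSO and 34.4, 30.02 and 32.4 with trametinib (-0.64 ± 0.077), and its fall was larger than in sgCON (-0.57 ± 0.11, adjusted p = 0.0372). Of 57 tested mitosis genes 0 rose and 6 fell (10.5% called, against 7.87% of all genes), with a median of -0.35, -0.019 in sgCON and -0.81 in YAPKO2. PTTG1, securin, fell from 228, 233 and 249 to 185, 178 and 169 (-0.41 ± 0.091). Of 59 tested DNA replication genes 0 rose and 6 fell (10.2% called), with a median of -0.20 against -0.86 in YAPKO2. The checkpoint kinase CHEK1 read 57.2, 47.2 and 39.3 in DMSO and 36.6, 34.8 and 32.9 with trametinib (-0.44 ± 0.11), and GINS1, of the replicative helicase, read 40.6, 41.4 and 43.4 in DMSO and 33.8, 29.2 and 32.2 with trametinib (-0.39 ± 0.082). The response differed from that of YAPKO2 for 15 replication genes and 5 mitosis genes, against 0.803% of all genes. CCNE1, cyclin E1, fell (-0.72 ± 0.13) and CDKN2C, an inhibitor of CDK4 and CDK6, rose (0.29 ± 0.087), though CDKN2C and CHEK1 were lost in some fits without 1 library (highest adjusted p = 0.183 and 0.123), and CDKN2C and GINS1 with the GC correction (0.188 and 0.22). With only the 6 YAPKO1 libraries 1 mitosis gene and 0 replication genes passed. In the BCL2 family BMF, a proapoptotic member, rose from 3.32, 3.96 and 6.75 to 13.4, 15.1 and 16.2 (1.63 ± 0.20).

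**Figure D4:**
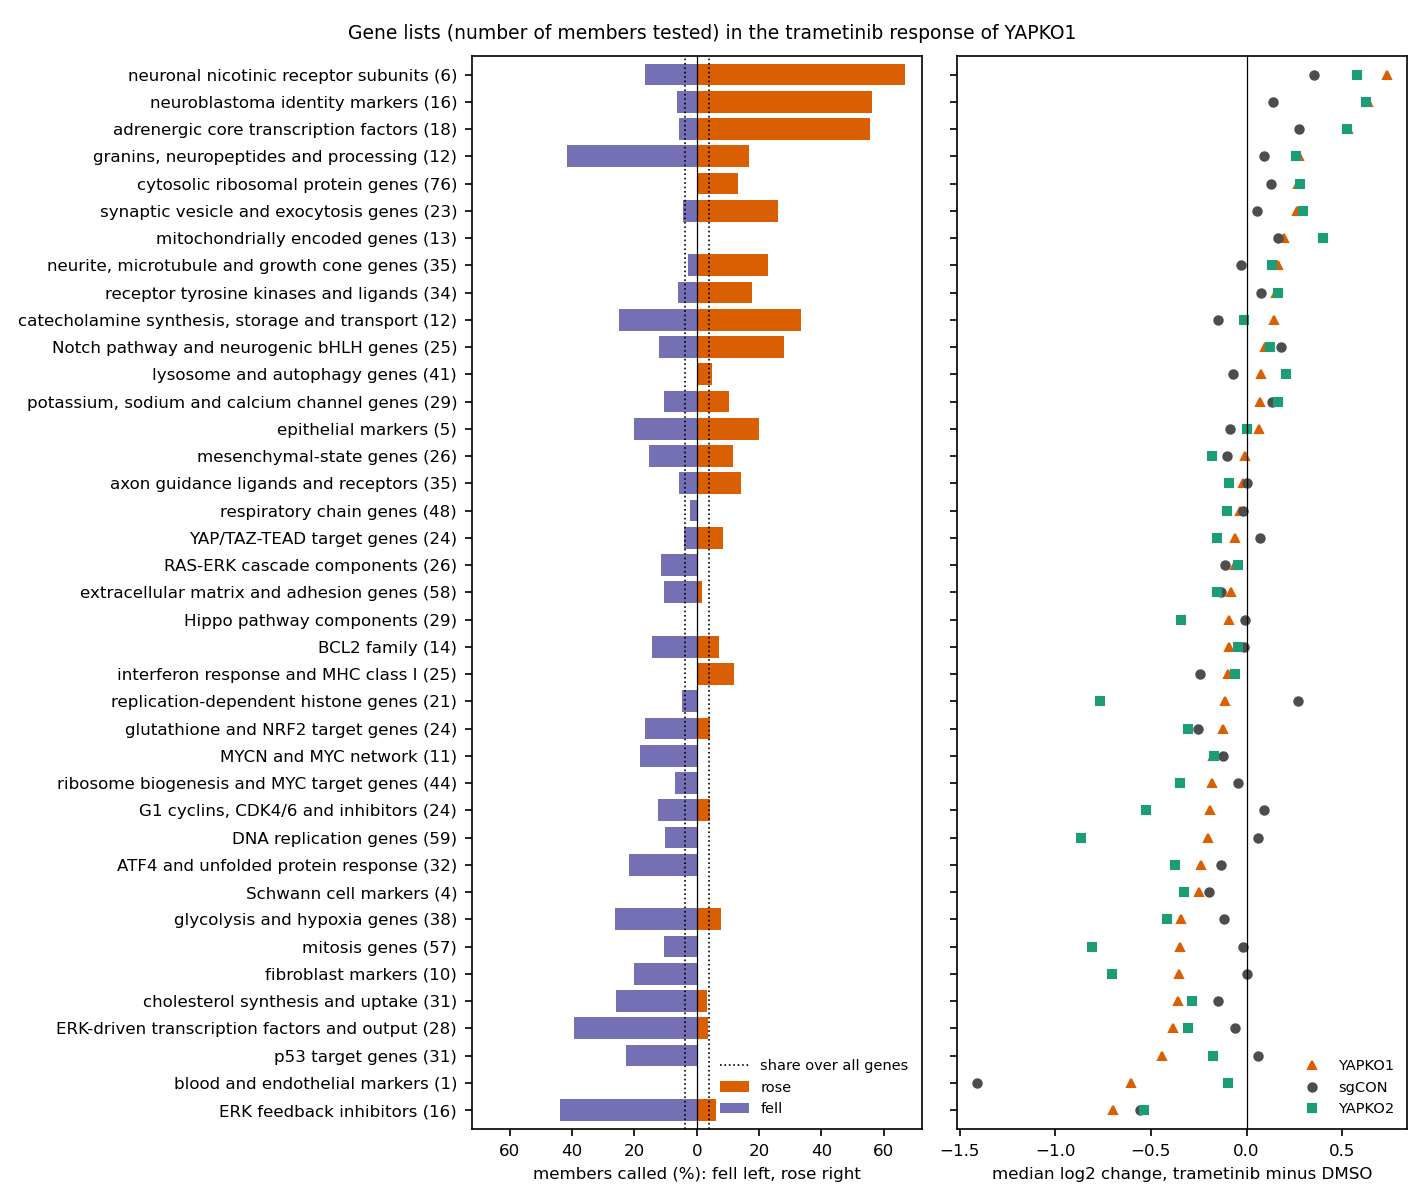
Left, share of the tested members of each of 39 lists (number tested in brackets) that rose (orange) or fell (purple) with trametinib in YAPKO1, with dotted lines at the 4.08% and 3.79% of all genes. Right, median log2 change of each list in YAPKO1 (triangles), sgCON (circles) and YAPKO2 (squares); ERK feedback inhibitors lie at -0.70 in YAPKO1 and neuronal nicotinic receptor subunits at 0.73.

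Of 38 tested glycolysis and hypoxia genes, 10 fell and 3 rose (34.2% called, against 7.87% of all genes). PFKP, a phosphofructokinase, read 69.1, 82.8 and 113 in DMSO and 41.7, 34.4 and 44.8 with trametinib (-1.10 ± 0.19). PGAM2, a phosphoglycerate mutase, rose from 2.87, 2.49 and 4.15 to 9.57, 11.9 and 13.5, and ADM, adrenomedullin, from 0.311, 0.133 and 0.514 to 2.02, 2.65 and 3.48. In the cholesterol list 1 of 31 rose and 8 fell, with a median of -0.36. SCD, a fatty acid desaturase, read 52.5, 56.2 and 59.1 in DMSO and 33.9, 31.6 and 36.1 with trametinib (-0.72 ± 0.088). TM7SF2, a sterol reductase, was the member that rose (1.29 ± 0.20). Of 32 ATF4 and unfolded protein genes 7 fell (21.9% called). PSAT1 of serine synthesis fell from 50.8, 58.2 and 56.3 to 34.99, 34.98 and 35.03. Of 24 glutathione and NRF2 genes 1 rose and 4 fell (20.8% called). TXNRD1, thioredoxin reductase, read 309, 281 and 242 in DMSO and 176, 172 and 135 with trametinib (-0.79 ± 0.13), and HMOX1, heme oxygenase, rose (0.63 ± 0.16), a call lost in some fits without 1 library (highest adjusted p = 0.0923). Without DMSO replicate 3 the falls in the 4 lists numbered 8, 7, 4 and 6, and with only the 6 YAPKO1 libraries 3, 1, 1 and 0.

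Of 24 tested YAP and TEAD target genes, 2 rose and 1 fell (12.5% called, against 7.87% of all genes), with a median of -0.058 that was 0.019 without DMSO replicate 3. IGFBP3, which binds insulin-like growth factors, rose from 0.107, 0.0512 and 0.164 to 2.32, 1.60 and 1.06 (1.79 ± 0.24), and DLC1, a GTPase activating protein, from 8.92, 7.03 and 8.56 to 17.1, 19.4 and 19.02 (1.14 ± 0.13). GADD45A, named above, was the fall. Of 29 tested Hippo pathway genes 0 were called by limma and 6 had an unadjusted p under 0.05. With the GC correction, a fit that called 2346 of all 16194 genes, 1 rose and 3 fell. For 7 of the 29 the values did not overlap, beside 21.3% of all genes. TEAD1 had the largest change of that list (0.54 ± 0.22, adjusted p = 0.168).

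Of 58 tested matrix and adhesion genes 6 fell and 1 rose (12.1% called, against 7.87% of all genes). Among 26 genes of the mesenchymal state 4 fell and 3 rose (26.9%). FN1, fibronectin, read 61.7, 67.5 and 67.7 in DMSO and 133, 112 and 133 with trametinib (0.93 ± 0.092), and this rise differed from the change in YAPKO2 (-0.39 ± 0.092; difference adjusted p = 5.86e-05). SNAI1, a repressor of epithelial genes, rose from 5.57, 6.41 and 7.62 to 13.6, 13.3 and 13.1. S100A10, a partner of annexin, fell from 7.43, 3.04 and 7.56 to 1.66, 0.644 and 1.74, while sgCON means were 142 ± 9.19 and 76.3 ± 8.38. ANXA1, annexin A1, fell to 0.289, 0.166 and 0 from 3.21, 1.995 and 0.771, and TGFBI, a matrix protein, from 0.3697, 0.880 and 0.689 to a value listed at 0 in all 3 libraries. The TGFBI call did not hold without DMSO replicate 2 (highest adjusted p = 0.0602). The summed fibroblast markers were also lower with trametinib, as given above, and their part in these values was not tested.

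The remaining list counts are read against the 7.87% of all genes called. Of 24 G1 cyclins, CDKs and inhibitors 1 rose and 3 fell (16.7% called), and of 14 BCL2 family genes 1 rose and 2 fell (21.4%). Of 41 lysosome and autophagy genes 2 rose and 0 fell (4.88%), and of 25 interferon and MHC class I genes 3 rose and 0 fell (12.0%). Of 48 respiratory chain genes 1 fell, and of 21 replication-dependent histone genes 1 fell. None of the 13 mitochondrially encoded genes was called by limma (0 at an unadjusted p under 0.05), with 12 values higher and 1 lower.

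The 15 largest rises and 15 largest falls among protein-coding genes with no overlap hold several genes not yet named. USH1C, a scaffold protein of hair cells, had the largest of these rises. It read 1.08, 0.952 and 0.586 in DMSO and 9.24, 9.26 and 8.52 with trametinib, 10.3-fold (log2 2.81 ± 0.22, adjusted p = 4.48e-07). AQP1, a water channel, read 9.27, 11.9 and 14.1 in DMSO and 73.6, 59.01 and 71.9 with trametinib (2.50 ± 0.20). ABCC8 and KCNJ11 encode the subunits of the ATP-sensitive potassium channel. ABCC8 read 0.846, 0.583 and 0.843 in DMSO and 5.65, 6.01 and 7.201 with trametinib (2.43 ± 0.22), and KCNJ11 read 2.33, 1.88 and 2.67 in DMSO and 11.8, 10.7 and 12.0 with trametinib (2.11 ± 0.20). In all 4 genes every trametinib value was more than 3 times the highest DMSO value.

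SSTR2, a somatostatin receptor, read 3.60, 2.72 and 3.41 in DMSO and 13.1, 15.9 and 14.9 with trametinib (2.02 ± 0.16), a larger rise than in sgCON (1.15 ± 0.23, adjusted p = 0.0408). RGS4, which shortens G protein signals, read 66.3, 67.0 and 51.8 in DMSO and 218, 291 and 214 with trametinib (1.95 ± 0.17). MFAP4, a matrix protein, read 6.33, 6.33 and 6.59 in DMSO and 29.8, 26.9 and 31.1 with trametinib (2.10 ± 0.19), and FNDC5, the precursor of irisin, read 3.72, 3.34 and 3.72 in DMSO and 23.7, 16.2 and 18.8 with trametinib (2.28 ± 0.27). PLSCR5, WFIKKN2 and EML5 rose by 1.93 ± 0.18, 1.87 ± 0.18 and 1.81 ± 0.23. SLC12A3, the sodium chloride cotransporter of the kidney, read 0.0681, 0.0205 and 0 in DMSO and 1.74, 1.36 and 1.13 with trametinib, so its DMSO values include a 0. Its mean was at most 0.126 in every other group of the series. SLC12A3 thus passed the filter only through these trametinib libraries, and its calls are given as a description only. All 15 rises passed with only the 6 YAPKO1 libraries and in every fit that left out 1 YAPKO1 library, and 12 also rose in sgCON.

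Among the falls, CHODL, a lectin of motor neurons, read 49.8, 50.05 and 35.3 in DMSO and 5.94, 7.45 and 6.74 with trametinib (-2.65 ± 0.17). MAP3K1, a kinase upstream of JNK, read 45.5, 46.6 and 41.05 in DMSO and 11.6, 11.1 and 9.08 with trametinib (-2.02 ± 0.12). MYLK, myosin light chain kinase, read 13.6, 22.9 and 21.9 in DMSO and 4.01, 3.63 and 4.09 with trametinib (-2.15 ± 0.18). No overlap between groups was a condition for naming these falls, so it adds nothing to them. RIT2, a neuronal RAS-like GTPase, read 4.05, 4.08 and 3.53 in DMSO and 0, 0.322 and 0.636 with trametinib, and LGR5, an R-spondin receptor, read 14.4, 14.2 and 8.11 in DMSO and 3.12, 2.85 and 2.06 with trametinib. ARHGDIB and CPED1 fell, with log2 changes of -2.03 ± 0.21 and -1.999 ± 0.24. PI15 had the widest error of the 15 (-2.75 ± 0.51), with DMSO values of 44.2, 33.8 and 13.8, and it was the 1 of 15 falls that did not pass with only the 6 YAPKO1 libraries (adjusted p = 0.0704). Of the 15 falls 14 fell in sgCON, CDH11 being the exception.

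The response of YAPKO1 differed from that of sgCON for 40 genes, 0.247% of those tested, with 32 positive and 8 negative differences. DCN, decorin of the matrix, had the most negative difference. It read 14.8, 11.4 and 11.96 in DMSO and 5.36, 5.28 and 2.99 with trametinib in YAPKO1, whereas sgCON went from 14.04 ± 1.92 to 31.1 ± 0.712 (SD, n = 3). The changes were -2.55 ± 0.22 apart (adjusted p = 1.2e-05), and both were called, in opposite directions. CDH11, a mesenchymal cadherin, read 12.9, 13.2 and 10.4 in DMSO and 3.26, 1.86 and 2.902 with trametinib, whereas sgCON means were 12.9 ± 0.978 and 11.1 ± 1.32 (difference -1.80 ± 0.35, adjusted p = 0.0376). SHISA3, an inhibitor of WNT and FGF receptors, read 5.99, 7.66 and 6.45 in DMSO and 2.28, 1.36 and 2.08 with trametinib, against a change of 0.22 ± 0.19 in sgCON. HTR7, a serotonin receptor, read 10.04, 9.62 and 9.003 in DMSO and 3.08, 2.47 and 2.08 with trametinib and fell in both lines, more in YAPKO1 (-1.11 ± 0.17). All 8 genes with a negative difference fell in YAPKO1, and in YAPKO2 DCN, CDH11, SHISA3 and HTR7 changed by -0.75, -0.83, -0.91 and -1.17.

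Positive differences came from rises in YAPKO1 or from falls in sgCON. Of the 32 genes, 20 rose in YAPKO1 and 16 fell in sgCON. SCUBE1, a secreted EGF-like protein, read 1.36, 0.819 and 1.07 in DMSO and 7.27, 5.95 and 6.98 with trametinib, a 6.22-fold rise (difference 1.94 ± 0.37, adjusted p = 0.0363), with sgCON means of 0.766 ± 0.407 and 0.979 ± 0.199. Its change in YAPKO2 was 2.14 ± 0.26. KCNAB1, a potassium channel subunit, rose from 0.759, 0.757 and 0.781 to 1.396, 2.22 and 1.07 and fell in sgCON (-1.08 ± 0.18); the YAPKO1 rise did not pass without DMSO replicate 3 (adjusted p = 0.0517). MARCH11, a ubiquitin ligase, had the largest positive difference among protein-coding genes (2.06 ± 0.28), but it did not pass in YAPKO1 (0.31 ± 0.19) and fell in sgCON (-1.74 ± 0.19). CPA4 and SLCO2B1 were at most 0.0308 and 0.452 in YAPKO1, and both fell in sgCON (-1.85 and -2.09). In all, 6 of the 32 had means under 1 in both YAPKO1 groups, and 15 were lower in YAPKO1 than in sgCON in DMSO.

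Against YAPKO2, the other knockout line, 130 genes differed in response, 0.803% of those tested. Of the 94 positive differences 87 fell in YAPKO2, and 12 rose and 25 fell in YAPKO1. GAP43 rose in YAPKO1, as given above, and fell in YAPKO2 (-1.30 ± 0.12), a difference of 2.43 ± 0.17 (adjusted p = 8.29e-07). TIMM23B rose in YAPKO1 (0.85 ± 0.17) and fell in YAPKO2 (-0.54 ± 0.17), and it is a near copy of another gene, so reads may be shared. Of the 36 negative differences, that of SYT4 was the largest among protein-coding genes (-2.91 ± 0.40, adjusted p = 0.00292). SYT4 did not pass in YAPKO2 (-0.29 ± 0.28). Its YAPKO2 means were low, at 0.566 ± 0.212 with DMSO and 0.365 ± 0.0999 with trametinib (SD, n = 3). This left little room for a fall in YAPKO2. CHGA rose in both lines, less in YAPKO1 (-2.20 ± 0.36). SPOCK3, a testican, read 5.57, 6.12 and 3.82 in DMSO and 4.997, 7.72 and 6.13 with trametinib in YAPKO1, whereas it rose in YAPKO2 (2.19 ± 0.30) and sgCON (1.79 ± 0.30). The differences share the YAPKO1 libraries, so they are not independent of each other.

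A total of 7 genes differed in response from both other lines. For SLC12A3 the YAPKO1 rise of 1.84 ± 0.22 stood against -0.011 ± 0.22 in sgCON and 0.13 ± 0.22 in YAPKO2. NRP1 and KCNAB1 had the same order, with the highest change in YAPKO1. SLC12A3 passed the filter only through the YAPKO1 trametinib libraries, so its differences are given as a description only. The same holds for ENSG00000243453, also among the 7, which changed by 1.80 in YAPKO1 and by 0 in sgCON and YAPKO2. ALK lay between the other lines, as did PRKCA, protein kinase C alpha, which read 30.1, 31.4 and 31.3 in DMSO and 16.1, 15.03 and 14.95 with trametinib (-0.99 ± 0.068) and fell in sgCON (-0.49) and YAPKO2 (-1.57). These counts fell to 8 for sgCON and 3 for YAPKO2 with only the groups compared, and rose to 146 and 365 with the GC correction.

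**Figure D5:**
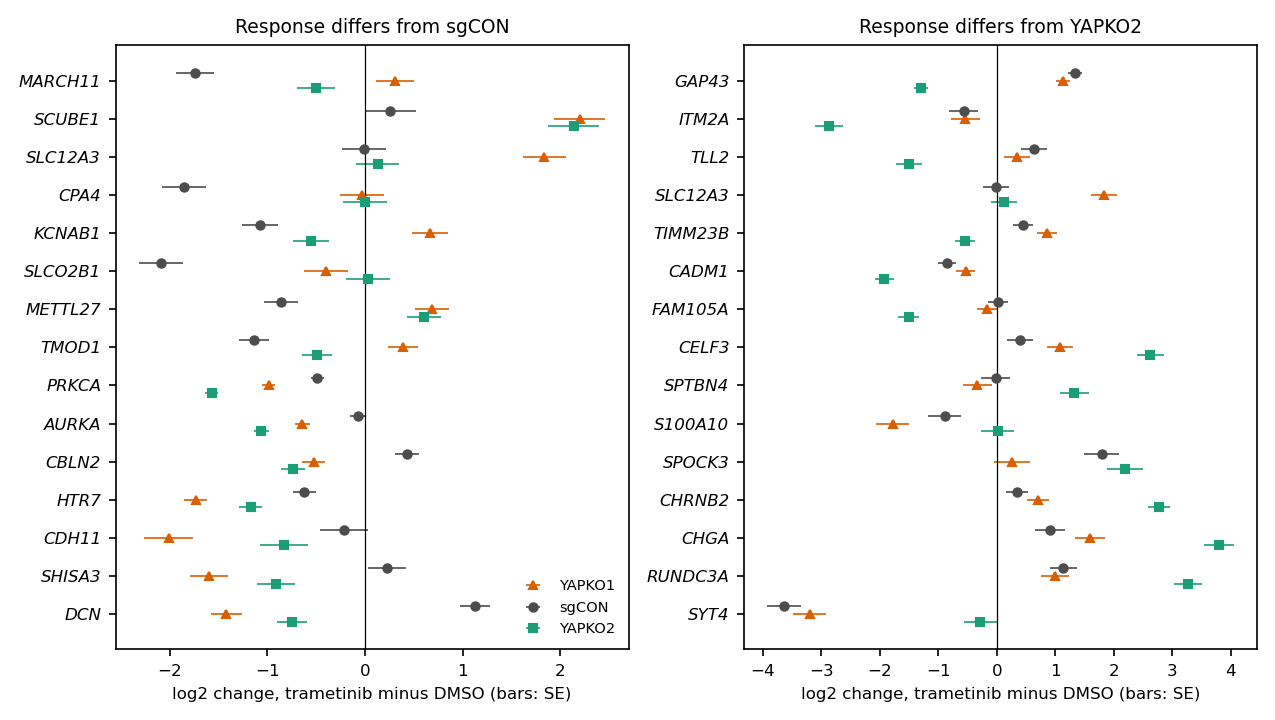
Log2 change with trametinib in YAPKO1 (triangles), sgCON (circles) and YAPKO2 (squares), with bars for the SE, for the named genes whose YAPKO1 response differs from sgCON (left, 15 genes) or from YAPKO2 (right, 15 genes). DCN lies at -1.42 in YAPKO1 and 1.13 in sgCON, and GAP43 at 1.13 in YAPKO1 and -1.30 in YAPKO2.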

How the data were processed

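Stranded total RNA libraries depleted of ribosomal RNA were made, per the labels' protocols. The authors deposited FPKM in 2 tables of 57820 genes by 21 libraries. Per the submitters' processing notes STAR 2.4.2, RSEM 1.3.0 and hg19 were used. The calibrated table equals the other times 1 factor per library (0.927 to 1.07). Whether counting used strand is not given in the sources used here, so antisense genes are uncertain, and the depth is unknown.

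Libraries were scaled by median ratios. Genes at 1 FPKM or more in at least 3 libraries (16194, of which 12192 protein-coding) were fitted as log2(FPKM + 0.5) in limma 3.58.1 (R 4.3.3). The model held group means for all 21 libraries, its eBayes step used a trend, and two-sided p-values were adjusted by Benjamini-Hochberg over all genes. Fold changes printed as -fold are ratios of mean scaled FPKM, and log2 changes are on the log2(value + 0.5) scale, which understates low genes. Response differences are interaction contrasts.

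On simulated data with 200 changed genes of 16194, 78% of 2-fold and 95% of 4-fold changes were recovered, with 20 false calls. Whether these rates hold in the measured libraries, which differ in GC trend, was not tested. The members and gene lists were chosen with earlier results of these data known. Named genes are YAP1, the 15 largest rises and falls among protein-coding genes that were called with no overlap, 8 per direction for each response difference (7 negative against sgCON), and up to 5 called members per list (3 where none was called), while the ERK, MYC, adrenergic and catecholamine lists may be named in full. Transcript GC content came from GENCODE release 29 (GRCh38) for 96.4% of tested genes, and gene types for 52338 IDs. Of the list symbols, 16 matched through an older symbol. No hg19 coordinate is printed. Some genes that this rule names are not reported here. Alternatives were other pseudocounts, filters, scalings, array weights, libraries in the fit, a replicate block, a GC spline (5 degrees of freedom) and leaving out each library. The GC correction combined with fewer libraries, and fewer libraries without DMSO replicate 3, were added after seeing the data.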

Additional observations from a re-analysis of the deposited data

Results flagged for a closer look

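The results listed here were marked because the test of the difference itself (limma, adjusted p under 0.05 over all genes) separated the trametinib response of YAPKO1 from that of another line. Values are log2 responses of YAPKO1 minus those of the other line. SLC12A3, listed in both comparisons, passed the filter only through the YAPKO1 trametinib libraries. TLL2 passed only through YAPKO2 with DMSO (mean 1.49, at most 0.295 in other groups). CHRNB2 and SPTBN4 passed only through YAPKO2 with trametinib (means 5.71 and 1.37, at most 0.558 and 0.555 in other groups). The differences of these 4 genes are given as a description only.

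Against sgCON the positive differences among the named genes were 2.06 for MARCH11, 1.94 for SCUBE1, 1.85 for SLC12A3, 1.83 for CPA4, 1.75 for KCNAB1, 1.69 for SLCO2B1, 1.54 for METTL27 and 1.53 for TMOD1. The negative ones were -2.55 for DCN, -1.82 for SHISA3, -1.80 for CDH11, -1.11 for HTR7, -0.96 for CBLN2, -0.57 for AURKA and -0.50 for PRKCA. CBLN2, a synaptic organiser, read 22.3, 18.97 and 21.7 in DMSO and 12.98, 15.9 and 14.4 with trametinib in YAPKO1. METTL27 rose from 0.584, 0.665 and 0.935 to 1.496, 1.52 and 1.36, a call lost in some fits without 1 library (highest adjusted p = 0.0878).

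Against YAPKO2 the positive differences were 2.43 for GAP43, 2.33 for ITM2A, 1.85 for TLL2, 1.71 for SLC12A3, 1.40 for TIMM23B, 1.39 for CADM1 and 1.34 for FAM105A. The negative ones were -2.91 for SYT4, -2.27 for RUNDC3A, -2.20 for CHGA, -2.06 for CHRNB2, -1.93 for SPOCK3, -1.80 for S100A10, -1.66 for SPTBN4 and -1.55 for CELF3. SYT4 and S100A10 had means of 0.566 and 0.0643 in YAPKO2 with DMSO, which left little room for a fall there. CADM1, a cell adhesion molecule, read 19.2, 17.2 and 13.3 in DMSO and 11.7, 12.2 and 9.68 with trametinib in YAPKO1, and ITM2A read 0.146, 0.379 and 0.3597 in DMSO and 0.0598, 0 and 0.0675 with trametinib.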

How the results depend on the processing

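The 1275 genes called in YAPKO1 became 198 with only the groups compared (287 without DMSO replicate 3 as well), 5429 with array weights, 2346 with the GC correction, 1931 with the GC correction and replicate block, and 2129 with the GC correction without DMSO replicate 3. Fits that left out 1 library of the 3 lines gave 752 to 1774. In the main fit and all 6 fits that left out a YAPKO1 library, 536 genes were called. The 40 differences from sgCON became 24 with a pseudocount of 0.1, 8 with only the groups compared, 23 with the calibrated table, 696 with array weights, 146 with the GC correction (138 without DMSO replicate 3) and 12 to 40 leaving out 1 library. The 130 differences from YAPKO2 became 3 with only the groups compared, 63 with the calibrated table, 1609 with array weights, 365 with the GC correction (397 without DMSO replicate 3) and 51 to 176 leaving out 1 library. The array weights used the gene-by-gene method. With the replicate block the counts were 958 for YAPKO1, 2 for sgCON and 5 for YAPKO2, and with the GC correction as well 26 for sgCON and 138 for YAPKO2. Same-numbered YAPKO1 libraries correlated in their deviations from the group means at -0.12, 0.17 and 0.23, and differently numbered ones at -0.32 to 0.23. Deviations within a group depend on each other, so these values cannot tell whether same-numbered libraries were paired.

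The median of the granin and neuropeptide list was -0.60 with the filter on the groups compared (0.27 as reported, and 0.064 to 0.34 under the other alternatives), and that of the Notch list -0.0095 with the GC correction without DMSO replicate 3 (0.099 as reported, and 0.014 to 0.15 under the others). The cause was not tested. The filter on the groups compared left no blood or endothelial marker, so that list has no median there. Depth is unknown, so low genes carry no counting interval.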

Other observations

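Adjacent genes on chromosome 11 rose together. In RefSeq order (GRCh38.p14) NCR3LG1, KCNJ11, ABCC8, USH1C and OTOG follow one another, and all 5 rose in YAPKO1, with log2 changes of 0.68 ± 0.16, 2.11 ± 0.20, 2.43 ± 0.22, 2.81 ± 0.22 and 1.70 ± 0.42. NCR3LG1, a ligand of a natural killer cell receptor, and OTOG, an inner ear matrix protein, were chosen after their values were seen. NCR3LG1 read 6.59, 5.35 and 4.59 in DMSO and 8.58, 9.69 and 8.83 with trametinib, and OTOG read 0.924, 1.27 and 2.66 in DMSO and 7.202, 6.94 and 4.299 with trametinib. The tested neighbours NUCB2 (-0.25 ± 0.40), PIK3C2A (-0.33 ± 0.44), RPS13 (0.26 ± 0.10) and SERGEF (-0.14 ± 0.17) did not pass. In sgCON KCNJ11, ABCC8 and USH1C rose (1.16, 1.16 and 1.48), while NCR3LG1 (0.41) and OTOG (-0.30) did not pass. In YAPKO2 KCNJ11, ABCC8, USH1C and OTOG rose (0.89, 2.06, 1.58 and 1.58), while NCR3LG1 did not pass (0.27).

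Counts by gene class stand beside the 7.87% of all genes called, and no difference between classes was tested. Of 601 tested lincRNAs 28 rose and 13 fell (6.82% called), with a median log2 change of 0.22, and of 1017 antisense genes 41 rose and 10 fell (5.01%), with a median of 0.16. Of 155 processed transcripts 11 rose and 0 fell (7.10%), and of 743 processed pseudogenes 6 rose and 5 fell (1.48%). Of 12192 protein-coding genes 542 rose and 570 fell (9.12%), with a median of -0.032. Of 119 snoRNAs 0 rose and 1 fell (0.840%), with a median of -0.34. Of 207 transcribed unprocessed pseudogenes 10 rose and 3 fell (6.28%), and of 126 sense intronic genes 1 rose and 2 fell (2.38%). Since strand use in counting is not given in the sources used here, antisense values may include reads of the partner gene.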
